A study of Mus musculus with 6 samples.

Results

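The cytosolic and mitochondrial protein-folding chaperones were followed at the RNA level in E14 cells, embryonic stem cells of the mouse with a 129/Ola background that can form all tissues of the embryo, after translation was blocked with cycloheximide. The genes were taken by symbol: the numbered Hspa, Hspb, Hspd, Hspe and Hsph genes, Hsp90 genes, Dnaja, Dnajb and Dnajc genes, Cct2 to Cct8, Ahsa genes and Tcp1, without the endoplasmic reticulum (ER) chaperones Hspa5 and Hsp90b1. This rule found 79 of the 17485 genes in the files, and 72 of them held enough counts to be tested, among 12755 tested genes in all. The untested genes were Dnajb7, Dnajc5b, Dnajc5g, Hspa12b, Hspa1l, Hspb7 and Hspb9. The symbols also bring in 6 genes listed as ER-resident (Dnajb9, Dnajb11, Dnajc1, Dnajc3, Dnajc10 and Hspa13), so the set is not only cytosolic and mitochondrial.

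Chaperones bind unfolded chains. HSP70 proteins do so in cycles of ATP hydrolysis that J-domain proteins (the DNAJA, DNAJB and DNAJC groups) start and HSP110 proteins help to reset by nucleotide exchange. HSP90, with co-chaperones such as AHSA1, acts later on folded clients, the ring complex TRiC/CCT folds actin and tubulin, and HSP60 with its lid HSP10 folds proteins inside mitochondria. Small HSPs hold aggregating proteins without ATP. Many of these genes are targets of heat shock factor 1, which free chaperones hold inactive and which binds repeated nGAAn units. Cycloheximide stops ribosomes during elongation and so cuts the supply of new chains, which are a main substrate of the cytosolic chaperones.

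Cycloheximide (250 µg/mL, dissolved in ethanol at a final 0.007%) was left on the cells for 3 h in one group and 6 h in the other, whereas the control group had 9 h of ethanol without the drug. Each of the 3 groups had 2 libraries, numbered here as in their titles. All cells were grown on gelatin in serum with leukaemia inhibitory factor. The effect of the drug and that of the hours in ethanol cannot be told apart, since the control time differs from both treatment times. Nothing in the labels says that the libraries of a group came from separate cultures, so the p-values measure only the spread between these libraries.

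Library totals ranged from 9385447 to 27351079 counts, with control library 2 the shallowest and both 6 h libraries the deepest. All 10 embryonic stem cell markers on the list were above 3 counts in every library and summed to 6976 to 7135 CPM (counts relative to library size, scaled by the trimmed mean of M values, TMM) in control, 8028 to 8277 after 3 h, and 5557 to 5735 after 6 h. Of the fibroblast feeder markers 2 of 5 found were above 3 counts in every library, with Dcn, Col1a2 and Lum at 0 in some, and the sum was 7.93 to 10.1, 4.39 to 7.69 and 3.07 to 6.17 CPM in the same order. Primitive endoderm markers (4 of 6) summed to 40.9 to 53.9 CPM in control, 46.7 to 49.9 after 3 h, and 16.4 to 19.6 after 6 h. Trophectoderm markers (4 of 5 found, with Cdx2 at 0 to 3 counts) summed to 49.2 to 58.9, 40 to 40.2, and 31.6 to 33.7 CPM. All 4 sums were lower in both 6 h libraries than in either control library, and the part of such cells in the chaperone results was not tested. Single markers did not all follow their sum. Sox7 held 655 and 275 counts in control and 153 and 147 at 6 h. Gata4, on the same list, held 8 and 29 and then 129 and 138. Krt8 held 497 and 422 counts in control and 591 and 549 in the deeper 6 h libraries, whereas Gata3 held 21 and 5 and then 186 and 186. Mitochondrially encoded transcripts took 24.7% and 24.9% of the control counts, 19.6% and 18.9% after 3 h, and 17.4% and 16.6% after 6 h. In bulk RNA, fewer cells with a transcript and less of it per cell cannot be told apart.

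The upstream DNA of the chaperone genes is shown first. Of the 22 genes called lower at 6 h, 10 are listed as heat shock factor targets. That list was chosen with earlier results of these data known. Among all tested genes 14.3% were called lower then, as were 42.1% of those averaging at least 100 CPM. The stretches below, 5′ to 3′ on the strand of the gene named, are from RefSeq promoter windows on GRCm38.p6, each of 300 bases with 250 bases before the transcription start. Capitals mark the fixed bases of adjoining alternating units, searched as GAANNTTC or TTCNNGAA wholly before the start. Each pattern reads the same on both strands, and neighbouring matches may overlap. The first 7 genes were called lower at 6 h and hold a match, though Cct2 and Cct5 are not listed targets. Ahsa1 and Dnajb1, listed targets called lower, have a window without a match. The listed targets Hsp90aa1, Hsp90ab1 and Hspa8, also called lower, have no window. Dnajb6 and Hspa1b hold a match and were not called. Other genes that hold a match were not called either and are not printed below. Their log2 fold changes at 6 h were 1.13 (Dnaja4), 0.85 (Dnajb4), 0.59 (Dnajc27), 0.09 (Hspb6), -0.30 (Dnajc10) and -0.39 (Hspa1a).
Hspe1 (chr1:55088053-55088082, + strand): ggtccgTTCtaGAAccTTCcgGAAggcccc
Hspd1 (chr1:55088053-55088082, - strand): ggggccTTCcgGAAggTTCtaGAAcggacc
Hsph1 (chr5:149636351-149636380, - strand): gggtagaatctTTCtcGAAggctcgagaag
Hspb1 (chr5:135887791-135887820, + strand): cttcaacaagaGAAgtTTCcagatgggggc
Dnaja1 (chr4:40722333-40722362, + strand): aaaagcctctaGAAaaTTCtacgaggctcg
Cct2 (chr10:117063399-117063428, - strand): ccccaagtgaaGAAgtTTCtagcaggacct
Cct5 (chr15:31601862-31601891, - strand): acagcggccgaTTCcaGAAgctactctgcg
Dnajb6 (chr5:29735844-29735873, + strand): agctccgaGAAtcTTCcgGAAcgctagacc
Hspa1b (chr17:34959324-34959353, - strand): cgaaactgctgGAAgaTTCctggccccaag

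Hspe1 and Hspd1, which encode HSP10 and HSP60, lie head to head, and the same stretch with 4 alternating units stands before both starts. It begins 89 bases before the Hspe1 start and, read on the other strand, 144 bases before the Hspd1 start used by RefSeq. GENCODE M21 places this stretch in an exon of Hspd1, because some Hspd1 transcripts start further out. The stretch of Hspa1a, at chr17:34972242-34972271 on the - strand, has the same 30 letters as that of Hspa1b. By GENCODE the Hspb1, Hspa1a and Hspa1b stretches are outside any gene, that of Cct2 is in an intron of Cct2, and that of Cct5 is in an exon of its neighbour Fam173b. The Hsph1, Dnaja1 and Dnajb6 stretches overlap an annotated exon of the gene itself.

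Promoter windows were matched for 64 of the 79 genes. Those not matched are Hsp90aa1, Hsp90ab1, Hspa8, Hspa9, Hspa13, Hspb2, Cct4, Dnajc2, Dnajc5, Dnajc5b, Dnajc11, Dnajc12, Dnajc18, Dnajc22 and Dnajc30. At least 1 pair of alternating units stands in 12.8% of all 32851 windows, and 3 alternating units in 0.466%. Among the chaperone genes tested, 15 hold a pair, of which 7 were called lower and 0 higher at 6 h, while 43 have a window without a pair, of which 11 were called lower and 2 higher. Hspd1, Hspe1 and Dnajb6 hold 3 or more units. Over all tested genes the share called lower at 6 h was 15.2% of 1115 genes with a pair and 14.4% of 8357 without. A match describes letters in the window and is neither a bound site nor a cause.

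At 3 h, 1 chaperone gene was called higher than control and 4 lower, a call being an adjusted p under 0.05 in edgeR's quasi-likelihood test over all genes. The background was 3.6% of all tested genes called higher and 1.3% lower. The 4 lower genes were Hsph1, Dnaja1, Hspe1 and Cct8, and the higher gene was Hspa13. The median log2 fold change of the 72 genes was -0.18, beside 0.02 over all tested genes. Of 1631 tested genes averaging at least 100 CPM, 82 were called lower and 68 higher at 3 h, with a median of -0.19. The 25 chaperone genes at that level held the 4 lower calls and had a median of -0.32. The chaperone calls at this time were few, and their number, like that over all tested genes, depended on single libraries. With edgeR none was called without 3 h library 1 or 3 h library 2 (21 and 14 genes had an unadjusted p under 0.05), 1 (Hsph1) remained without control library 2, without 6 h library 1 or without 6 h library 2, and 8 were called without control library 1.

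At 6 h, 22 chaperone genes were called lower and 4 higher, where 14.3% of all tested genes were called lower and 14.8% higher. The lower genes held HSP90 and its co-chaperone (3 of 4 tested), HSP60 and HSP10 (2 of 2), TRiC/CCT (8 of 9), Hsph1 of the HSP110 group (1 of 3) and Hspa8 of the HSP70 group (1 of 8). Others were Hspb1 among the small HSPs (1 of 5), Dnaja1 and Dnaja2 (2 of 4), and 2 each of 11 DNAJB and 26 DNAJC genes. The higher genes were Dnajc1, Dnajc5, Dnajb14 and Hspa13. The median log2 fold change was -0.29, beside 0.04 over all tested genes. Leaving out either 6 h library left fewer calls over all tested genes as well as among the chaperones. The count of 26 calls became 12 without 6 h library 2 and 15 without 6 h library 1, and 12 genes were called whichever library was left out (Ahsa1, Cct6a, Cct8, Dnaja1, Dnaja2, Dnajc1, Hsp90ab1, Hspa8, Hspb1, Hspd1, Hspe1 and Hsph1). Without control library 1, 5 further genes were called higher (Cct6b, Dnajb2, Dnajb4, Dnajc9 and Hspb8), and without control library 2 Dnajc27 was, all named after their values were seen.

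**Figure D1:**
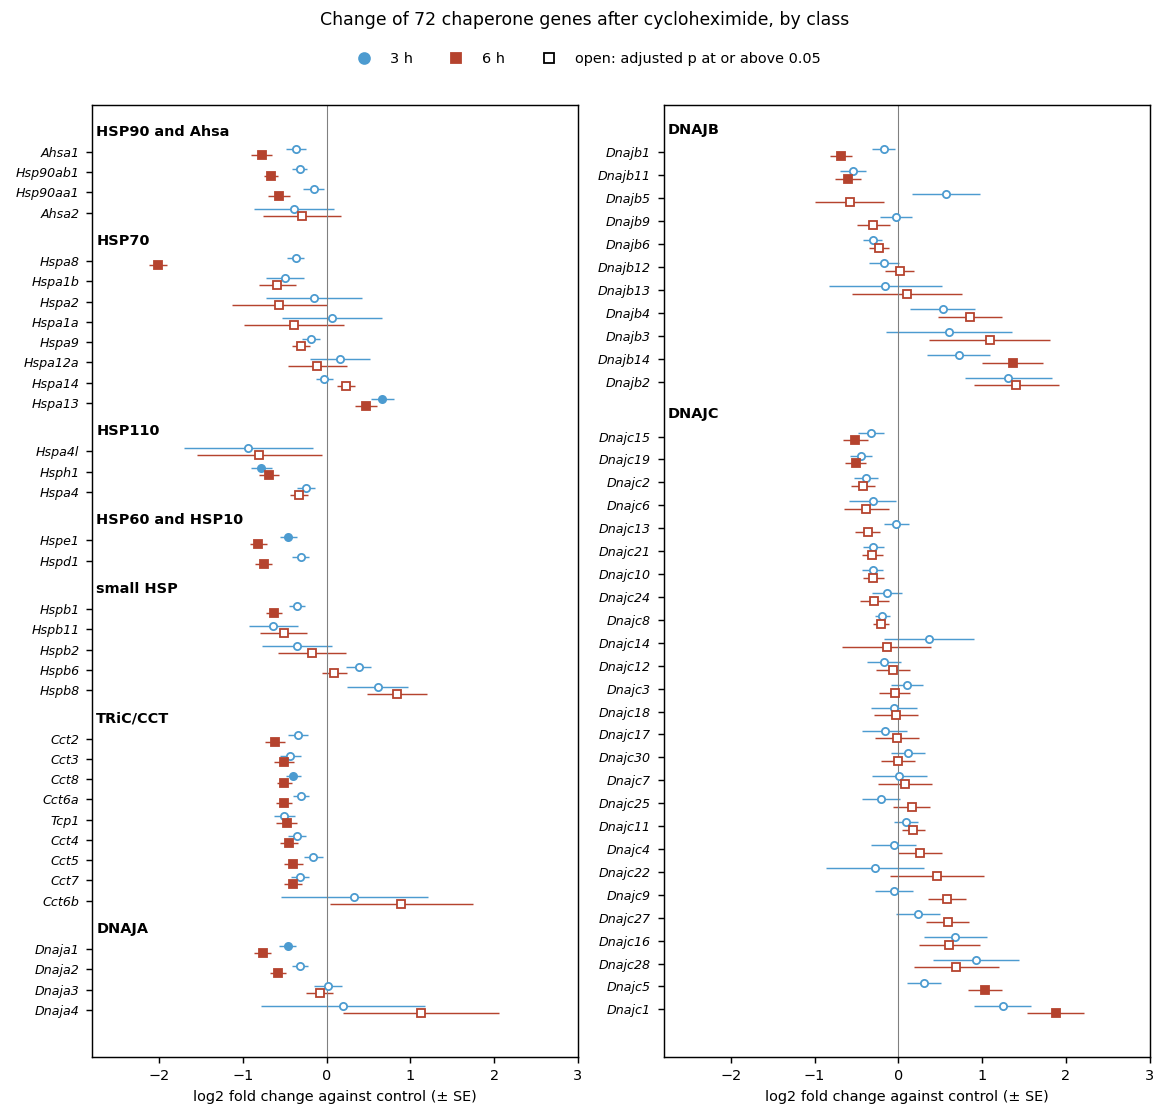
Log2 fold change against control (x axis, TMM scaling, bars ± SE of the fit) of the 72 tested chaperone genes, by class, at 3 h (circles) and 6 h (squares), with filled symbols for adjusted p under 0.05. At 6 h Hspa8 stands at -2.01, the 8 TRiC/CCT subunits between -0.40 and -0.62, and Dnajc1 at 1.88, while with library totals alone the medians of DNAJA, HSP70, small HSP and DNAJC at 6 h were above 0.

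The size of these changes depends on how libraries are scaled. The values here use TMM, and with library totals alone the median over all tested genes at 6 h moved from 0.04 to 0.40, at 3 h from 0.02 to 0.25 and between 6 h and 3 h from 0.01 to 0.14. The share of higher genes among all calls moved from 50.8% to 88.2% at 6 h, from 73.4% to 95.8% at 3 h and from 27.8% to 56.5% between 6 h and 3 h. For the chaperone genes at 6 h, library totals alone gave 12 called higher and 6 called lower in place of 4 and 22, and at 3 h 3 higher and 1 lower in place of 1 and 4. The 6 lower genes were Hspa8, Hspe1, Ahsa1, Dnaja1, Hspd1 and Hsp90ab1. All 22 genes called lower had a value below 0 under both scalings, whereas Hspa4, Hspa9, Dnajb6 and Dnajc8, not called, moved to 0.03, 0.05, 0.13 and 0.14 with library totals alone. The changes below are relative to the TMM centre.

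By class, the 6 h medians on TMM scaling and with library totals alone were -0.78 and -0.43 for HSP60 and HSP10, -0.69 and -0.33 for HSP110, -0.61 and -0.26 for HSP90 and Ahsa, and -0.48 and -0.12 for TRiC/CCT. The median changed sign for HSP70 (-0.35 and 0.01), DNAJA (-0.33 and 0.03), small HSP (-0.18 and 0.18) and DNAJC (-0.03 and 0.33), and was above 0 both ways for DNAJB (0.01 and 0.37). The first 4 classes were thus below 0 under both scalings.

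Transcript level moves with the result. Of 1631 tested genes that averaged at least 100 CPM, 42.1% were called lower and 8.95% higher at 6 h, and their median log2 fold change was -0.31. Of the 25 chaperone genes at that level, 17 were called lower and 0 higher, with a median of -0.51. Of the 47 chaperone genes under 100 CPM, 5 were called lower and 4 higher, with a median of -0.02. All 11124 tested genes under 100 CPM had a median of 0.12, and 10.2% were called lower and 15.6% higher, so the lower count there is near that background. The part that transcript level plays in the chaperone changes was not tested.

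**Figure D2:**
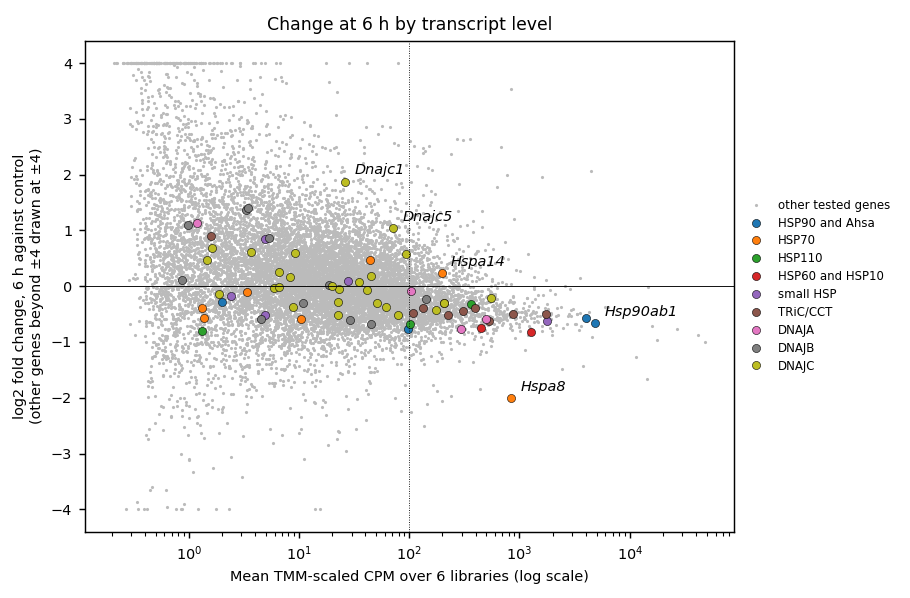
Log2 fold change at 6 h against control (y axis, TMM scaling) by mean TMM-scaled CPM over the 6 libraries (x axis, log scale), with grey points for other tested genes, coloured points for chaperone genes by class, and a dotted line at 100 CPM. Of the 25 chaperone genes right of the line 24 lie below 0, as do 1240 of all 1631 genes there, and Hspa8 lies lowest of the chaperones.

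Hspa8 encodes HSC70, the constitutive cytosolic HSP70 that binds nascent chains and uncoats clathrin vesicles, and it lies at chr9:40800984-40810087 on the + strand (mm10). Its level in TMM-scaled CPM was 1218 and 1280.3 in the control libraries, 903 and 1031 after 3 h, and 303 and 319 after 6 h. Both 6 h libraries were far below all others, and the 3 h libraries were below both controls. At 6 h the level was 4.02-fold lower than control (log2 fold change -2.01 ± 0.11 SE, adjusted p = 3.04e-05 in edgeR's quasi-likelihood test). The 3 h value was -0.37 ± 0.10 and did not pass the test (edgeR adjusted p = 0.0751).

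Hspa8 was also the single chaperone gene called between 6 h and 3 h, at -1.64 ± 0.11 (edgeR adjusted p = 0.00053), where 1.18% of all tested genes were called lower and 0.455% higher. Without either control library 5 chaperone genes were called in this comparison, Hspa8 among them. Hspa8 was called at 6 h against control under all 16 alternative settings in which it was fitted, from -1.65 to -2.04. Its share of all chaperone counts was 4.70% and 5.01% in control, 4.19% and 5.02% after 3 h, and 1.75% and 1.88% after 6 h. The introns of Hspa8 host small nucleolar RNAs (Snord14c, Snord14d and Snord14e). Genes of such RNAs also lie inside Hspa9, Cct6a and Tcp1. How the counting treated reads from them is not given in the sources used here. Their part in the values of Hspa8 and of these other genes was not tested.

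**Figure D3:**
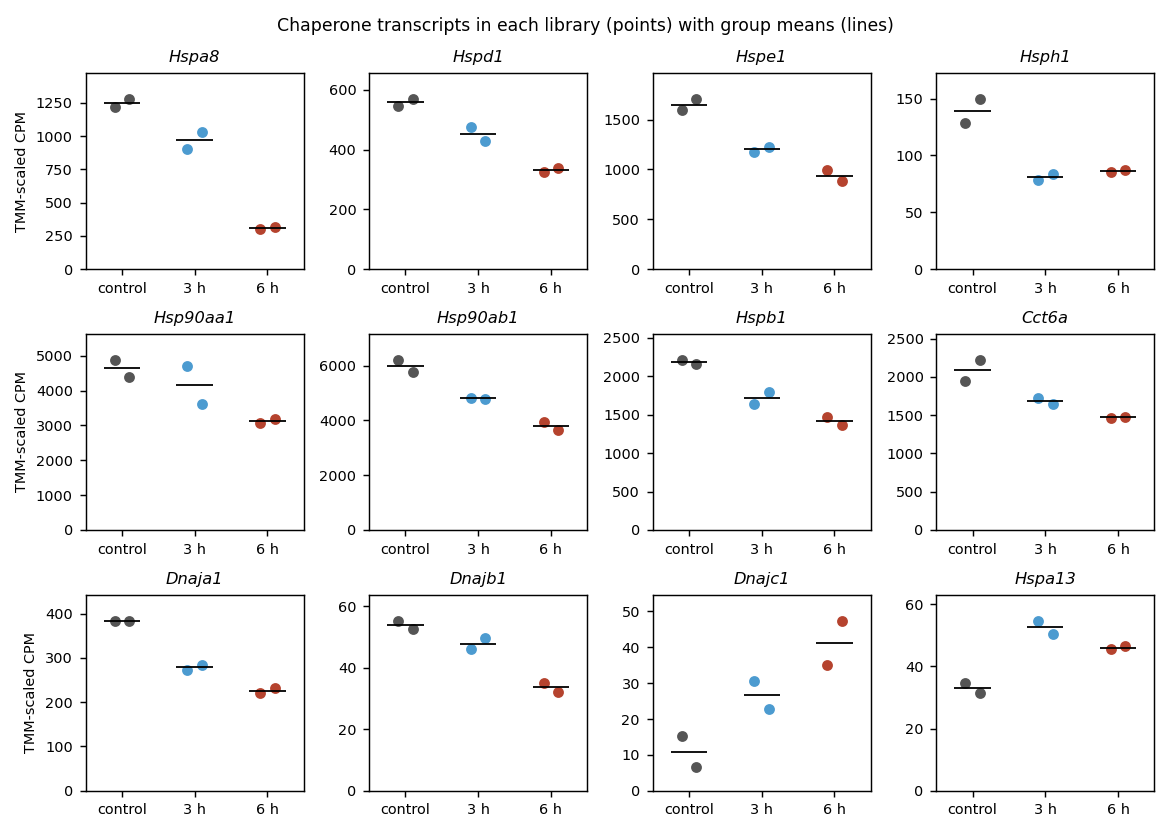
TMM-scaled CPM (y axis, linear from 0) of 12 chaperone genes in each library (points), by group, with group means (lines). Hspa8 drops from 1218 and 1280.3 in control to 303 and 319 at 6 h, while Dnajc1 and Hspa13 are higher in treated than in control libraries.

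Of the other 7 tested HSP70 genes, 0 were called lower and 1 higher at 6 h, where 14.3% of all tested genes were lower and 14.8% higher. Hspa13, which encodes the microsomal HSP70 called STCH, read 34.8 and 31.4 CPM in control, 54.8 and 50.4 after 3 h, and 45.5 and 46.5 after 6 h, with no overlap between control and treated libraries. It rose at 3 h (0.66 ± 0.14, edgeR adjusted p = 0.0334) and at 6 h (0.47 ± 0.14, edgeR adjusted p = 0.0322). Its 6 h call was lost without any 1 of the libraries other than control library 1, with adjusted p from edgeR between 0.0553 and 0.151 and values from 0.40 to 0.48. Hspa9, the mitochondrial HSP70, read -0.30 ± 0.11 at 6 h, and Hspa14, a ribosome-associated HSP70, read 0.23 ± 0.11, both without passing the test.

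The stress-inducible pair Hspa1a and Hspa1b was scarce. Hspa1b held 162 and 117 counts in control, 123 and 183 after 3 h, and 256 and 235 after 6 h, or 12 and 14.3, 7.95 and 10.6, and 8.45 and 9.01 CPM. Its 6 h value of -0.59 ± 0.22 did not pass the test. Hspa1a held 10 to 37 counts in each library, with 1.56 and 1.22 CPM in control and 0.726 and 1.42 at 6 h. The longest transcripts of the pair were 99.3% identical over 2209 aligned bases, so the split of reads between them is uncertain.

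HSP110 proteins exchange nucleotide on HSP70. Hsph1 read 128 and 149.8 CPM in control, 78.2 and 83.9 after 3 h, and 85.2 and 87.5 after 6 h, so all treated libraries lay below both controls and the 3 h and 6 h libraries were close to each other. It fell at 3 h (-0.78 ± 0.13, edgeR adjusted p = 0.0145) and at 6 h (-0.69 ± 0.12, edgeR adjusted p = 0.00572). The 6 h against 3 h value was 0.09 ± 0.12. Hspa4 at 6 h read -0.32 ± 0.11 (edgeR adjusted p = 0.0502), just outside the threshold, and Hspa4l was near the filter at 0.347 to 1.96 CPM over the 6 libraries.

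HSP90 and its co-chaperones took more of the chaperone counts than any other class in all 6 libraries. Hsp90ab1, the constitutive cytosolic form, read 6219 and 5772 CPM in control, 4811 and 4796 after 3 h, and 3939 and 3639.7 after 6 h, so that the 3 groups did not overlap. It fell at 6 h by 0.66 ± 0.09 on the log2 scale (edgeR adjusted p = 0.00165), and its 3 h value of -0.32 ± 0.09 did not pass (edgeR adjusted p = 0.072). Hsp90aa1, the form induced by heat, read 4886 and 4393 CPM in control, 4713 and 3619 after 3 h, and 3074 and 3185 after 6 h. Control and 3 h libraries overlapped for this gene, and both 6 h libraries were lower.

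Hsp90aa1 fell at 6 h by 0.57 ± 0.13 (edgeR adjusted p = 0.0127), a call lost without 6 h library 1 (-0.54, edgeR adjusted p = 0.0649) or 6 h library 2 (-0.59, edgeR adjusted p = 0.0581). Ahsa1, which activates the ATPase of HSP90, read 128 and 122 CPM in control, 95.7 and 98 after 3 h, and 78.5 and 67.5 after 6 h. The groups were in the order control, 3 h, 6 h with no overlap, and the gene fell at 6 h by 0.77 ± 0.12 (edgeR adjusted p = 0.00365). The ratio of Hsp90aa1 to Hsp90ab1 counts was 0.786 and 0.761 in control, 0.98 and 0.755 after 3 h, and 0.78 and 0.875 after 6 h. These ranges overlap.

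The mitochondrial folding chamber had the lowest median of the 9 classes at 6 h. Hspe1 read 1593 and 1709 CPM in control, 1179 and 1224 after 3 h, and 997 and 879 after 6 h. Hspd1 read 547 and 569.8 in control, 474 and 429 after 3 h, and 326 and 339 after 6 h. For both genes the 3 groups were separate and in the order of time. Hspe1 fell at 3 h (-0.46 ± 0.10, edgeR adjusted p = 0.0411) and at 6 h (-0.82 ± 0.10, edgeR adjusted p = 0.00128). Hspd1 fell at 6 h (-0.75 ± 0.10, edgeR adjusted p = 0.00186), and its 3 h value of -0.31 ± 0.10 did not pass.

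The Hspd1 to Hspe1 count ratio was 0.343 and 0.333 in control, 0.402 and 0.351 after 3 h, and 0.327 and 0.386 after 6 h, so that the pair with the shared upstream stretch kept a ratio within these bounds. GENCODE lists 5 named pseudogenes of Hspd1 and 6 of Hspe1, and the 2 genes overlap at their 5′ ends. Reads could thus be shared among these copies. Named pseudogenes are also listed for Dnaja1, Dnajc19, Hspa9, Cct3 and Tcp1. Other chaperone genes, among them Dnajc1, Cct6a and Cct8, overlap another coding gene on either strand. The part of such copies and overlaps in the values was not tested. Over all tested genes 14.3% were called lower and 14.8% higher at 6 h, and 42.1% were lower among those averaging at least 100 CPM. Of the 8 tested genes listed as mitochondrial, 4 were called lower at 6 h and 0 higher, with a median of -0.41. Besides Hspd1 and Hspe1 these were Dnajc15 and Dnajc19, J-domain proteins of the inner-membrane import motor. Hspa9, Dnaja3, Dnajc11 and Dnajc30 were not called.

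TRiC/CCT is a double ring of 8 different subunits, Tcp1 and Cct2 to Cct8, present in equal number. All 8 were called lower at 6 h, within a narrow range from -0.40 for Cct5 and Cct7 to -0.62 for Cct2. The background was 14.3% of all tested genes called lower, and 42.1% of those averaging at least 100 CPM. Cct8 read 1046 and 1075 CPM in control, 812 and 801 after 3 h, and 737 and 755 after 6 h. Cct6a read 1951 and 2226 in control, 1723 and 1649 after 3 h, and 1458 and 1481 after 6 h. Tcp1 read 137 and 129 in control, 102 and 86.5 after 3 h, and 99.3 and 92.5 after 6 h. Every 6 h library was below both controls for these 3 subunits.

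At 3 h Cct8 was the single subunit called (-0.39 ± 0.09, edgeR adjusted p = 0.0453), and the other 7 read -0.16 to -0.50 without passing. Of the 8 subunits 7 had an unadjusted p under 0.05 in edgeR at 3 h, and DESeq2 called 6 of them lower, edgeR with no filter beyond 1 count 4, and limma-voom 1. Between 6 h and 3 h the 8 subunits read -0.28 to 0.03, and 0 were called by edgeR (1 at an unadjusted p under 0.05), 0 by DESeq2 and 0 by limma-voom. Cct6b, the testis paralog of Cct6a, held 1 to 68 counts and was not called. With library totals alone the 8 subunits read -0.04 to -0.26 at 6 h and were not called. The calls of Cct3, Cct4, Cct5, Cct7 and Tcp1 were lost without either 6 h library, at edgeR adjusted p from 0.0783 to 0.146, and that of Cct2 without 6 h library 2 (-0.56, edgeR adjusted p = 0.0587). Without control library 1 Cct5, Cct7 and Tcp1 were not called (edgeR adjusted p 0.0877, 0.0818 and 0.065), and without control library 2 Cct3 and Cct4 were not (0.0648 and 0.0548). Cct5 was also lost without 3 h library 1 (0.0533) or 3 h library 2 (0.053).

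Within the complex the shares of counts differed little between libraries. Cct6a took 39.2% and 41.1% of the 8 subunits' counts in control, 41.6% and 40.6% after 3 h, and 39.8% and 40.3% after 6 h. Cct8 took 21% and 19.9%, 19.6% and 19.7%, and 20.1% and 20.6% in the same order. These are shares of counts and not of molecules, since whether counts grow with transcript length is not given in the sources used here.

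**Figure D4:**
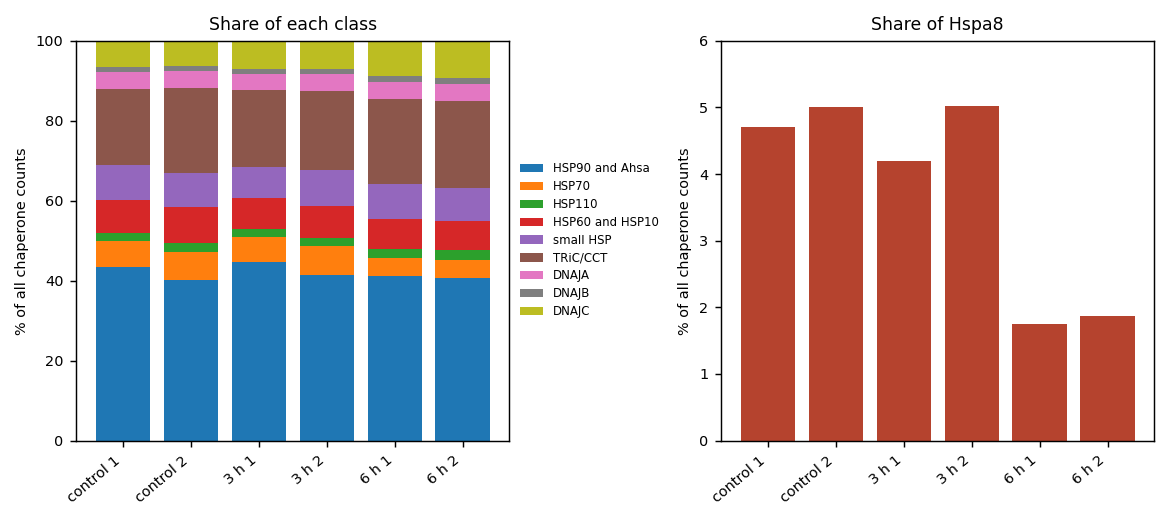
Share of all chaperone counts (y axis, percent) in each library (x axis), for the 9 classes stacked to 100% (left) and for Hspa8 alone (right). TRiC/CCT holds 19.2% to 21.6% in every library, while Hspa8 holds 4.19% to 5.02% in control and 3 h libraries and 1.75% and 1.88% at 6 h.

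As a whole the chaperones took 2.27% and 2.23% of all counts in control, 2.18% and 2.12% after 3 h, and 1.91% and 1.92% after 6 h. Inside that pool the HSP70 class held 6.52% and 6.87% in control, 6.35% and 7.20% after 3 h, and 4.47% and 4.64% after 6 h, lower than in every other library. Without Hspa8 the class held 1.81% and 1.86% in control, 2.16% and 2.18% after 3 h, and 2.72% and 2.76% after 6 h, so its other genes took a larger share at 6 h and the lower class share was that of Hspa8. The DNAJC class held 6.63% and 6.4% in control, 7.14% and 7.02% after 3 h, and 8.92% and 9.34% after 6 h. Both 6 h libraries were above the other 4 for this class. The HSP90 class held 40.3% to 44.7% with no separation of the groups.

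Among the small HSPs, Hspb1 (HSP25 in mouse, a holdase) read 2217 and 2160.3 CPM in control, 1641 and 1792 after 3 h, and 1469.8 and 1361 after 6 h, with no overlap among the groups. It fell at 6 h by 0.63 ± 0.09 (edgeR adjusted p = 0.00284), and its 3 h value of -0.35 ± 0.09 did not pass (edgeR adjusted p = 0.0697). Hspb8, which works with BAG3 in selective autophagy, read 4.45 and 2.2 CPM in control and 5.94 and 6.32 at 6 h. Its change of 0.84 ± 0.36 was not called.

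DNAJA proteins are the general J-domain partners of cytosolic HSP70. Dnaja1 read 385 and 384 CPM in control, 274 and 283 after 3 h, and 219.9 and 233 after 6 h. It fell at 3 h (-0.47 ± 0.10, edgeR adjusted p = 0.0369) and at 6 h (-0.76 ± 0.10, edgeR adjusted p = 0.00153), and the 3 groups did not overlap. Dnaja2 read 593 and 611 in control, 497 and 468 after 3 h, and 394 and 411 after 6 h, and fell at 6 h by 0.58 ± 0.10 (edgeR adjusted p = 0.00406). Dnaja3, the mitochondrial form, read 101 and 111 CPM in control and 109.9 and 90.2 at 6 h, and its groups overlapped.

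Dnajb1, the HSP40 of the heat shock response, read 55.4 and 52.7 CPM in control, 46 and 49.6 after 3 h, and 35.1 and 32.2 after 6 h. It fell at 6 h by 0.68 ± 0.13 (edgeR adjusted p = 0.00745), a call lost without 6 h library 2 (-0.62, edgeR adjusted p = 0.0688). Dnajb6, an anti-aggregation J protein with 3 alternating units upstream, read 162 and 161 in control, 132 and 129 after 3 h, and 127 and 148 after 6 h. Its 6 h value of -0.23 ± 0.12 did not pass. Dnajb4 read 0.85 ± 0.38 without passing, on 70 and 18 control counts.

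Dnajc1, an ER-membrane J protein also known as ERdj1, had the largest rise of the 72 genes at 6 h. It read 15.2 and 6.6 CPM in control, 30.5 and 22.7 after 3 h, and 34.9 and 47.5 after 6 h, with every treated library above both controls. It rose 3.67-fold at 6 h (1.88 ± 0.34, edgeR adjusted p = 0.00557). The control libraries held 205 and 54 counts, and the 6 h value moved between 1.44 without control library 2 and 2.64 without control library 1. Its 3 h value of 1.24 ± 0.34 did not pass (edgeR adjusted p = 0.0727) but did without control library 1 (edgeR adjusted p = 0.00891).

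Dnajc5, the cysteine string protein of secretory vesicles, read 60.1 and 39.3 CPM in control, 65.6 and 58.4 after 3 h, and 93.4 and 112 after 6 h. It rose at 6 h by 1.04 ± 0.20 on the log2 scale (edgeR adjusted p = 0.00725), a call lost without 6 h library 2 (0.90, edgeR adjusted p = 0.0552). Dnajb14, a J protein of the ER membrane that faces the cytosol, read 1.56 and 2.32 CPM in control, 3.04 and 3.24 after 3 h, and 4.69 and 5.14 after 6 h. It rose at 6 h by 1.37 ± 0.36 (edgeR adjusted p = 0.0241), on 21 and 19 control counts. Its call was lost without control library 1 (1.08), 6 h library 1 (1.42) or 6 h library 2 (1.29), at edgeR adjusted p of 0.0825, 0.0959 and 0.137.

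Most DNAJC genes, whose members are specialised partners of HSP70, did not pass the test, and neither did most tested genes. At 6 h 22 of 26 were not called, beside 9052 of all 12755 tested genes and 8253 of the 11124 under 100 CPM. With edgeR 0 of 26 were called at 3 h (5 at an unadjusted p under 0.05), where 12130 of all tested genes were not called. At 3 h DESeq2 made 2 calls among the 26 and limma-voom 0. Dnajc8, a splicing-associated J protein, read 588 and 613 CPM in control and 531 and 505 at 6 h, at -0.21 ± 0.09. Dnajc2, the ribosome-bound partner of Hspa14, read -0.42 ± 0.14 (edgeR adjusted p = 0.0587). Dnajc7 and Dnajc3 read 0.08 ± 0.32 and -0.04 ± 0.19. The DNAJC genes called lower, named after their values were seen, were Dnajc15 (-0.51 ± 0.15) and Dnajc19 (-0.51 ± 0.13). Both calls were lost without control library 2, 6 h library 1 or 6 h library 2, at edgeR adjusted p from 0.0581 to 0.167, and that of Dnajc15 also without 3 h library 1 (0.0593) or 3 h library 2 (0.0564).

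The 6 ER-resident genes were split, with 2 called higher (Dnajc1 and Hspa13), 1 called lower and 3 not called at 6 h. Over all tested genes 14.8% were called higher and 14.3% lower. The lower gene of the 6 was Dnajb11, a partner of the ER HSP70, named after its values were seen. It read 34.3 and 40.2 CPM in control and 23.5 and 25.5 at 6 h (-0.60 ± 0.16, edgeR adjusted p = 0.0219), a call lost without control library 2, 6 h library 1 or 6 h library 2 (edgeR adjusted p 0.0796, 0.13 and 0.0913). Dnajb9 and Dnajc3, targets of the unfolded protein response, read -0.30 ± 0.19 and -0.04 ± 0.19 at 6 h and were not called.

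Of the 12 listed heat shock factor targets, 3 were called lower at 3 h (Hsph1, Dnaja1 and Hspe1) and 10 at 6 h, with 0 higher at either time. The 6 h median was -0.68, and Hspa1a and Hspa1b were the 2 not called. The background at 6 h was 14.3% of all tested genes called lower and 42.1% of those averaging at least 100 CPM. At 3 h it was 1.3% of all tested genes and 82 of the 1631 averaging at least 100 CPM. With library totals alone 6 of the 10 were called lower (Ahsa1, Dnaja1, Hsp90ab1, Hspa8, Hspd1 and Hspe1). The list was chosen with earlier results of these data known. It shares its members with the classes above, and most of them are abundant transcripts. Hsf1, the factor itself, read 58.1 and 50.8 CPM in control, 51.2 and 51.2 after 3 h, and 48.2 and 45.3 after 6 h, at -0.22 ± 0.13 without passing. Hsf2 read 17.5 and 7.21 CPM in control and 18.5 and 20.5 at 6 h, also without passing.

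Co-chaperones and other folding partners outside the symbol rule were taken from a list of 46 genes, of which 44 were tested. At 6 h 14.3% of all tested genes were called lower and 14.8% higher. Among those averaging at least 100 CPM, 42.1% were called lower and 8.95% higher, with a median of -0.31. For the partners 12 were called lower and 0 higher, with a median of -0.25. This became 7 without 6 h library 1, 4 without 6 h library 2, and 2 lower and 3 higher with library totals alone. Calls over all tested genes also became fewer without either 6 h library. At 3 h edgeR called 0 partners (10 at an unadjusted p under 0.05), DESeq2 7 and limma-voom 1. Grpel1, the nucleotide exchange factor of mitochondrial HSP70, read 137.8 and 155 CPM in control, 115 and 106 after 3 h, and 80.1 and 77.4 after 6 h. It fell at 6 h by 0.90 ± 0.12 (edgeR adjusted p = 0.00184), with no overlap among the groups, and was called without each library in turn.

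The other 11 partners called lower, named after their values were seen, read -0.43 to -0.80 at 6 h. Pdcl3, a phosducin-like partner of TRiC/CCT, read 58.2 and 59.8 CPM in control, 51.1 and 43.9 after 3 h, and 31.5 and 36.3 after 6 h, at -0.80 ± 0.15 (edgeR adjusted p = 0.00573). Ptges3, the HSP90 co-chaperone p23, read 1023 and 995 CPM in control, 781 and 780 after 3 h, and 687 and 690 after 6 h, at -0.55 ± 0.09 (edgeR adjusted p = 0.00379). For both genes the 3 groups did not overlap, and both were called without each library in turn. Ppid, a cyclophilin that binds HSP90, read -0.62 ± 0.11 (edgeR adjusted p = 0.00596), a call lost without 6 h library 2 (edgeR adjusted p = 0.0532). The other 8 were Bag1, Btf3, Fkbp4, Fkbp8, Naca, St13, Txndc9 and Vbp1, each of which lost its call without at least 1 library. With library totals alone the 2 partners called lower were Grpel1 (-0.54) and Pdcl3 (-0.44).

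Stip1, which links HSP70 to HSP90, read 363 and 271 CPM in control, 224 and 205 after 3 h, and 282 and 283 after 6 h. Both 3 h libraries were the lowest. The 3 h value of -0.56 ± 0.14 did not pass (edgeR adjusted p = 0.0615), but did without control library 2 (-0.76, edgeR adjusted p = 0.0142).

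Among partners not called at 6 h, Cdc37, which brings kinases to HSP90, read 104 and 71.8 CPM in control and 76.3 and 58.5 at 6 h, with overlapping libraries. Chordc1 read 154 and 177 CPM in control and 148 and 151 at 6 h. Trap1, the mitochondrial HSP90, read 45.5 and 41.1 CPM in control and 42 and 40.7 at 6 h. Bag3, a stress-induced partner of HSP70, read 4.15 and 6.35 CPM in control and 6.24 and 6.32 at 6 h.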

How the data were processed

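Each library came as 1 table in which the authors deposited raw counts for every gene, and per the submitters' processing notes the genome build was mm10. TRIzol was used to extract polyA RNA, and barcoded samples were pooled for sequencing, per the labels' protocols. How reads were aligned and counted, the strand setting and any molecular identifiers are not given in the sources used here. The design text speaks of single-cell sequencing and the title of bulk, and each file holds 1 column, analysed as 1 bulk library. Library totals were 9385447 to 27351079 counts, and 3 counts, taken as the floor, equal 0.099 to 0.367 TMM-scaled CPM. This floor covers counting error only. Replicates differed beyond counting noise (chi-square per degree of freedom 18.7 to 27.7).

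Genes kept by edgeR 4.0.16 filterByExpr (minimum count 10) were scaled by TMM (trims of 30% and 5%) and fitted with a mean per group over all 6 libraries by the quasi-likelihood test in R 4.3.3, with 3 residual degrees of freedom. P-values are two-sided and adjusted by Benjamini-Hochberg over all tested genes within each of 3 comparisons. The SE is the absolute log2 fold change divided by the square root of F. Both comparisons with control share the control libraries. Alternatives used DESeq2 1.42.0, limma 3.58.1 (voom), other scalings and filters, a replicate block, thinning and each library left out. The test was checked on simulated counts. Named genes are those with the smallest p and the most control counts in each class, the 5 largest called changes in each direction, and a fixed list. The chaperone genes, classes, lists and this rule were chosen with earlier results of these data known. Gene positions are from GENCODE M21 and promoter windows from RefSeq (GRCm38.p6), and identities were computed with Biopython 1.88.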

Additional observations from a re-analysis of the deposited data

Results flagged for a closer look

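Hspa8 differed between the treatment times. Its log2 fold change at 6 h against 3 h was -1.64 ± 0.11 SE (edgeR adjusted p = 0.00053), with 903 and 1031 TMM-scaled CPM in the 3 h libraries and 303 and 319 at 6 h. It was the single chaperone gene for which the direct test between the treatment times passed. Its call held without each library in turn.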

How the results depend on the processing

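The number of chaperone genes called was 26 at 6 h against control, and 28 with limma-voom, 29 with DESeq2, 31 with no filter beyond 1 count, 26 after thinning each library to the smallest total and 18 with library totals alone. It was 15 at adjusted p under 0.01 and 12 to 27 when 1 library was left out. At 3 h the 5 calls became 18 with DESeq2, 14 with no filter beyond 1 count, 2 with the replicate block, 1 with only the 4 libraries compared, 0 at adjusted p under 0.01 (26 genes had an unadjusted p under 0.05 in edgeR) and 0 to 8 with 1 library left out. Between 6 h and 3 h the 1 call became 6 with DESeq2, 4 with limma-voom, 9 with no filter beyond 1 count, 4 with only the 4 libraries compared and 1 to 5 with 1 library left out. Counts over all tested genes moved as well. The 625 calls at 3 h became 1437 with DESeq2 and 1816 with no filter beyond 1 count. They were 426 with the replicate block and 218 with only the 4 libraries compared. Between 6 h and 3 h, 209 became 692 with DESeq2 and 508 with limma-voom. No filter beyond 1 count gave 1063 there, and only the 4 libraries compared gave 563. Leaving out 1 library also moved these counts. The cause of these shifts was not tested. None of the chaperone genes called with the settings of the report changed direction. Hspa4 at 6 h, not called there, was called lower under 6 alternatives and read 0.03 with library totals alone.

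The replicate block gave 28 calls at 6 h, with the 22 lower genes among them, and 1 call between 6 h and 3 h. At 3 h it left Hsph1 and Hspa13 called, while Dnaja1, Hspe1 and Cct8 were not (edgeR adjusted p 0.053, 0.0628 and 0.0637). The deviations of same-numbered libraries gave r = 0.09 (control and 3 h), -0.02 (control and 6 h) and 0.02 (3 h and 6 h) over all tested genes, and 0.42, -0.13 and -0.14 over those averaging at least 100 CPM. The labels do not say that the numbers mark a shared culture or day, so they were not taken to pair the libraries. These values cannot tell whether the control and 3 h libraries were paired. With 2 libraries a group and 9385447 counts in the smallest, the 47 tested chaperone genes under 100 CPM had a median SE of 0.26 at 6 h, beside 0.11 for the 25 above it.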
